A study of Mus musculus with 16 samples.

Results

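The RNA of sorted splenic B cells was examined for 10 genes that are typical of macrophages, namely C1qa, C1qb, C1qc, Lyz2, Csf1r, Adgre1, Vcam1, Hmox1, Mertk and Cd5l. They were chosen by name and were found by an exact match of the gene symbol, which gave 10 of the 27928 genes in the table. The RNA came from follicular (FO) B cells, sorted as CD21lo CD23hi, and marginal zone (MZ) B cells, sorted as CD21hi CD23lo, of young adult mice. WT mice were of the C57BL/6 strain with no floxed allele and no Cre stated. The cKO mice, also labelled C57BL/6, were homozygous for a floxed allele of Gtf2i, the gene of the transcription factor TFII-I, and carried a Cre that removes it in B lineage cells. No agent was given to the mice or cells of these 8 libraries, and each of the 4 groups (WT FO, cKO FO, WT MZ and cKO MZ) holds 2. The B cells were first enriched by removing other cells with magnetic beads and were then sorted on CD21 and CD23. Macrophages are not B lineage cells, so this Cre is not designed to act in them.

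Macrophages of the spleen differ by their place. Those of the red pulp engulf aged red cells and recycle their iron, and depend on the transcription factor Spi-C, while others line the marginal zone, where MZ B cells also reside, and carry the receptors Marco and SIGN-R1 (Cd209b). Of the genes studied here, C1qa, C1qb and C1qc encode the 3 chains of C1q, the molecule that starts the classical complement pathway, and are made by tissue macrophages. Csf1r is the receptor on which most macrophages depend for survival, Adgre1 encodes the F4/80 antigen, Mertk is a receptor for the uptake of dying cells and Lyz2 is a lysozyme of granulocytes, monocytes and macrophages. Vcam1 is an adhesion molecule of red pulp macrophages and of stromal and endothelial cells, Hmox1 is the inducible enzyme that breaks down heme, and Cd5l is a secreted protein of tissue macrophages.

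The libraries held between 21546552 and 25083552 reads on genes. The sort was visible in its own markers, since Cr2 (CD21) ranged from 22942 to 26803 normalized counts in FO and from 86953 to 97087 in MZ, and Fcer2a (CD23) from 24802 to 41973 and from 3069 to 6708. A normalized count is a read count that the DESeq2 size factor has scaled for depth. Gtf2i was at 1992 to 2864 normalized counts in the 4 WT libraries and at 1523 to 1889 in the 4 cKO libraries. Sex-linked transcripts moved with genotype: Xist was at 25930 or more and Ddx3y at 6.34 or less in the WT libraries, against Xist at 89.7 or less and Ddx3y at 4439 or more in 3 cKO libraries. cKO FO 1 held both, with Xist at 14748 and Ddx3y at 2682. Genotype and sex therefore cannot be told apart here, and the source of the mixed signal in cKO FO 1 was not tested. cKO MZ 1 stood apart in another way, as its 14 granulocyte genes summed to 2111 and its 7 erythroid genes to 14413 normalized counts, against at most 144.4 and 1071 in any other library.

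All 10 genes were detected in every library, at a low level. Their summed share, in reads per 1000000 reads on genes, was 26.6, 58.3, 50.9 and 29.1 in WT FO 1, WT FO 2, cKO FO 1 and cKO FO 2, and 25.9, 92.8, 100.1 and 55.0 in WT MZ 1, WT MZ 2, cKO MZ 1 and cKO MZ 2. The exact 95% binomial interval for the lowest library, WT MZ 1, was 24.0 to 28.1, and that for WT MZ 2 was 89.1 to 96.7. Intervals of this kind cover counting error only. The 2 WT MZ libraries therefore lay further apart than WT FO and cKO FO did, and further than their counting error. As summed normalized counts, FO ranged from 648.7 to 1384 and MZ from 614.5 to 2231, with WT MZ 1 below all 4 FO libraries. In bulk RNA, fewer cells of a type and less RNA per cell cannot be told apart.

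The genes differed widely in level once exon length was taken into account. On the scale of normalized counts per kilobase of exon, the mean over 8 libraries was 204 for Lyz2, 112 for Hmox1, 84.8 for C1qb, 79.3 for C1qa, 46.7 for C1qc, 40.4 for Cd5l, 35.5 for Adgre1, 30.7 for Csf1r, 16.7 for Vcam1 and 4.38 for Mertk. The ranges of neighbours in this order overlapped throughout except at its end, where Mertk (1.61 to 6.47) lay below Vcam1 (6.73 to 29.7).

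The C1q chains were present in all libraries. Their group means were highest in cKO MZ, although WT MZ 2 was above cKO MZ 2 for C1qb and C1qc. Pairs of values are given in the order of replicates 1 and 2. C1qa, on chromosome 4 (mm10, 136895917 to 136898803, minus strand), was at 37.9 and 52.3 normalized counts in the 2 WT FO libraries, 81.7 and 52.3 in cKO FO, 29.9 and 113.2 in WT MZ, and 167.4 and 124.8 in cKO MZ. C1qb was at 37.9 and 65.6 in WT FO, 91.8 and 59.4 in cKO FO, 29.9 and 142.2 in WT MZ, and 184.4 and 126.8 in cKO MZ. C1qc was at 33.9 and 49.5 in WT FO, 81.7 and 67.4 in cKO FO, 22.1 and 144.0 in WT MZ, and 199.3 and 123.7 in cKO MZ. For each chain, both cKO MZ libraries and WT MZ 2 were above all 4 FO libraries, and WT MZ 1 was below them all. The gap within WT MZ was larger than counting error, as the 23 reads of C1qc in WT MZ 1 have an exact 95% Poisson interval of 14.0 to 33.2 normalized counts and the 159 reads in WT MZ 2 one of 122.5 to 168.2.

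C1qb and C1qc lie beside C1qa within the same stretch of chromosome 4 on the same strand, and the chains moved together more closely than any with the other genes. Their promoters, taken with that of Cd5l from RefSeq (GRCm38.p6, 250 bases before to 50 after the gene start, read along the gene), are shown because these are the genes whose levels in MZ are described most fully here. Capitals mark the 6 bases GAGGAA, a core bound by the Ets factors PU.1 and Spi-C, or TTCCTC where it lies on the other strand. The table held such a window for 5 of the 10 genes.
C1qb, chr4:136886151-136886450, minus strand: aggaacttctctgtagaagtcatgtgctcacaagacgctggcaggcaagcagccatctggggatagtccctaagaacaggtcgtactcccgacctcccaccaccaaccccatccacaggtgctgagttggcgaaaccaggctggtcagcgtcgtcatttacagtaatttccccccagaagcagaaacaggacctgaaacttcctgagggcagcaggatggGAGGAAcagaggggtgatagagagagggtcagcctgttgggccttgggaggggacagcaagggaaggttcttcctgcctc
C1qc, chr4:136892865-136893164, minus strand: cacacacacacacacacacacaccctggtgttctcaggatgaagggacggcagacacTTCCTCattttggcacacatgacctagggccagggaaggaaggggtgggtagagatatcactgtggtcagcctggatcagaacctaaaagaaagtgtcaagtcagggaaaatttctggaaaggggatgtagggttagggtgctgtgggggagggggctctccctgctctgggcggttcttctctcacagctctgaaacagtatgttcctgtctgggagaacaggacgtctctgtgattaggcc
Cd5l, chr3:87357631-87357930, plus strand: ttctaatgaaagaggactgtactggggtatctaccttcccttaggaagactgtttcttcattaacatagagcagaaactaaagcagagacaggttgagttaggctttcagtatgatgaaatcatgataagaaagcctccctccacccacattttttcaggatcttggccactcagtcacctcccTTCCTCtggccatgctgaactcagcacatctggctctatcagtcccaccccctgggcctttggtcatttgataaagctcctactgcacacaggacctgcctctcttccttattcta

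Each of these 3 windows held the core once on either strand, and those of Lyz2 and Mertk did not hold it. Of all 32851 promoters of this length, 28.3% held it. The 7 bases TGCTGAC, a sequence bound by Maf factors, were in none of the 5 windows and in 4.67% of all promoters. Both motifs were chosen after the values were seen, and a match is a description of the letters only.

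Read against each other, the 3 chains kept nearly fixed shares. C1qa made up 28.3% to 36.5% of the C1q reads over the 8 libraries, C1qb 33.1% to 39.2% and C1qc 27.1% to 37.6%, while the C1q reads themselves went from 85 in WT MZ 1 to 553 in cKO MZ 1. In WT MZ 1, C1qa took 36.5% of 85 reads, with an exact 95% binomial interval of 26.3% to 47.6%, and in cKO MZ 1 it took 30.4% of 553 reads, with an interval of 26.6% to 34.4%. The Pearson correlation of log2 levels over the 8 libraries was 0.99 for C1qa with C1qb, 0.98 for C1qa with C1qc and 0.99 for C1qb with C1qc. The points share their libraries, so these values are descriptive.

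**Figure D1:**
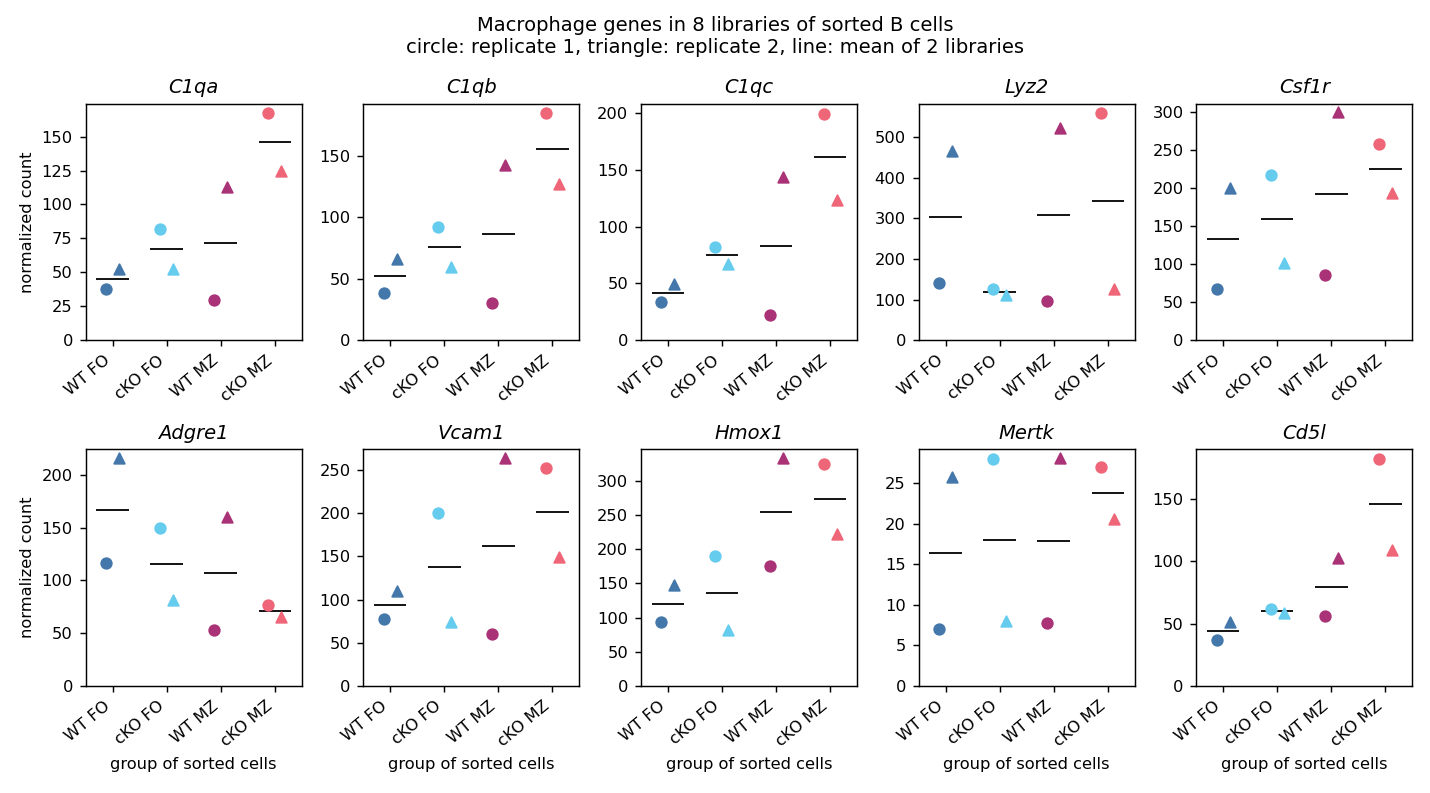
Normalized counts of the 10 macrophage genes (vertical axes, each from 0) in WT FO, cKO FO, WT MZ and cKO MZ B cells, with 1 point per library and a line at the mean of the 2 libraries of a group. WT MZ 1 lies at or near the bottom of most panels, and its partner WT MZ 2 near the top, as for C1qc (22.1 and 144.0).

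The receptors showed the same split between libraries of a group. Csf1r, the receptor for the growth factors CSF-1 and IL-34, was at 66.9 and 199.8 normalized counts in the WT FO libraries, 217.2 and 100.7 in cKO FO, 85.7 and 298.9 in WT MZ, and 257.1 and 192.8 in cKO MZ. Mertk was at 6.99 and 25.7 in WT FO, 27.99 and 8.05 in cKO FO, 7.70 and 28.1 in WT MZ, and 26.9 and 20.6 in cKO MZ, on 7 to 31 reads. For both genes WT FO 1, cKO FO 2 and WT MZ 1 were the 3 lowest libraries, and FO and MZ overlapped. Their log2 levels correlated at a Pearson r of 0.97 over the 8 libraries. Csf1r overlaps Hmgxb3 on the other strand, and Mertk overlaps the antisense gene Gm14011. Since the use of strand in counting is not given in the sources used here, reads from such partners cannot be told apart. Hmgxb3 was between 1379 and 1749 normalized counts, and its part in the Csf1r level was not tested.

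Adgre1 was higher in the same library of each group as Csf1r and Mertk, but differed from them between the groups. It was at 116.8 and 216.0 normalized counts in the WT FO libraries, 150.0 and 81.5 in cKO FO, 53.0 and 160.3 in WT MZ, and 76.7 and 65.0 in cKO MZ. Its mean was higher in FO than in MZ, the only gene of the 10 for which this held, but WT MZ 2 was above 3 of the 4 FO libraries. Its log2 level correlated with the summed level of the 10 genes at r = 0.37 (Spearman 0.38), against 0.78 to 0.95 for the other 9. The sum includes the gene that is compared with it, so these values are not independent of that gene.

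Lyz2 split the libraries into a high and a low set that cut across all groups but cKO FO. It was at 140.7 and 466.2 normalized counts in the WT FO libraries, 125.4 and 111.7 in cKO FO, 95.3 and 522.6 in WT MZ, and 559.2 and 126.8 in cKO MZ. WT FO 2, WT MZ 2 and cKO MZ 1 were the 3 high libraries, with the other 5 at 140.7 or less. These 3 libraries also had the highest sums of the 9 monocyte genes (426.2, 391.2 and 450.5, against 82.8 to 192.8 in the other 5) and of the 9 T and NK cell genes (175.1, 152.1 and 148.5, against 45.4 to 71.7), and their part in the Lyz2 level was not tested. Lyz1, a near-identical lysozyme gene whose reads the counting could mix with those of Lyz2, was at 9.98 normalized counts or less in every library.

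Vcam1 was at 77.8 and 110.4 normalized counts in the WT FO libraries, 200.4 and 74.5 in cKO FO, 59.7 and 263.5 in WT MZ, and 252.2 and 149.5 in cKO MZ. The FO and MZ libraries overlapped, with WT MZ 1 lowest of all 8. Vcam1 overlaps the antisense gene Gm43109. Of the 4 genes of VCAM-1 and the integrin chains that bind it, Itgb1 was called higher in MZ over both genotypes (log2 difference 0.92) and Itgb7 lower (-2.10). Of all genes tested, 10.9% were called higher and 7.45% lower.

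Hmox1 and Cd5l came closest to a division between the subsets. Hmox1 was at 92.8 and 147.5 normalized counts in the WT FO libraries, 190.3 and 82.5 in cKO FO, 175.3 and 333.3 in WT MZ, and 324.9 and 221.7 in cKO MZ. Only cKO FO 1 and WT MZ 1 broke the order, with the former above the latter. Cd5l was at 36.9 and 51.4 in WT FO, 61.6 and 58.4 in cKO FO, 55.9 and 102.3 in WT MZ, and 182.4 and 109.3 in cKO MZ. Here WT MZ 1 lay between the WT FO and the cKO FO libraries, and the other 3 MZ libraries were above all of FO.

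The comparison of MZ with FO asks whether either sorted subset carried more macrophage transcripts. It was tested with limma on the log2 of the normalized count plus 1, over the 14761 genes whose normalized count averaged 10 or more, which all 10 genes passed. A gene was called where the p-value, adjusted after Benjamini and Hochberg, was 0.05 or less and the change 1.5-fold or more. Within WT, none of the 10 genes was called by limma, edgeR or DESeq2, where limma called 7.41% of all genes tested higher in MZ and 4.62% higher in FO. At an unadjusted limma p below 0.05, 0 of the 10 and 4469 of all 14761 genes passed. Within cKO, limma and edgeR called 0 of the 10 and DESeq2 called 1 (Cd5l), where limma called 8.18% of all genes higher in MZ and 5.54% higher in FO. At an unadjusted limma p below 0.05, 2 of the 10 (Hmox1 and Cd5l) and 4933 of all 14761 genes passed. Over both genotypes, 2 of the 10 were called higher in MZ and 0 higher in FO, against 10.9% and 7.45% of all genes.

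Hmox1 was higher in MZ by 1.07 on the log2 scale (SE 0.33, 95% interval 0.30 to 1.83, limma adjusted p = 0.0408, 4 libraries against 4). The call was lost without WT FO 1, cKO FO 2, WT MZ 2, cKO MZ 1 or cKO MZ 2, with log2 differences of 0.90, 0.77, 0.84, 0.93 and 1.203 and limma adjusted p of 0.110, 0.110, 0.104, 0.139 and 0.0672, and it was kept without cKO FO 1 (1.37, adjusted p = 0.0223). Cd5l was higher in MZ by 1.00 (SE 0.26, 95% interval 0.39 to 1.62, limma adjusted p = 0.0225). Its call was lost without WT FO 1, cKO FO 1, cKO FO 2, WT MZ 2 or cKO MZ 1, with log2 differences of 0.89, 1.02, 0.98, 0.79 and 0.82 and limma adjusted p of 0.0641, 0.0631, 0.0643, 0.0600 and 0.0884. Neither gene was called without cKO MZ 1, the library with the raised granulocyte and erythroid genes. No gene of the 10 had every MZ library above every FO library, where 18.6% of all genes tested did, and none had the reverse, where 17.9% did.

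The other 8 genes did not pass over both genotypes in the fit of all libraries. Their log2 differences, MZ minus FO, were 0.76 for C1qa (95% interval -0.18 to 1.70), 0.71 for C1qb (-0.38 to 1.80), 0.77 for C1qc (-0.45 to 1.99), 0.48 for Lyz2 (-1.07 to 2.04), 0.53 for Csf1r (-0.61 to 1.67), 0.55 for Vcam1 (-0.62 to 1.72), 0.36 for Mertk (-1.02 to 1.74) and -0.71 for Adgre1 (-1.61 to 0.19). Each interval holds 0, and the upper bounds of the first 7 run past a 3-fold difference in favour of MZ, so that these libraries do not bound the differences closely. Without WT MZ 1, the log2 differences of C1qa, C1qb, C1qc, Hmox1 and Cd5l were 1.23, 1.27, 1.43, 1.30 and 1.22. Those of Lyz2, Csf1r, Vcam1, Mertk and Adgre1 were then 1.095, 0.97, 1.08, 0.80 and -0.31. Without WT MZ 2, the first set was at 0.28, 0.16, 0.11, 0.84 and 0.79, and the second at -0.13, 0.08, 0.02, -0.07 and -1.10. With 1 library left out, C1qa, C1qb and C1qc were called, higher in MZ, only without WT MZ 1. Adgre1 was called, higher in FO, only without WT MZ 2. Both of these fits left 1 library in WT MZ. Without cKO MZ 1 the log2 differences of the 8 genes were 0.65 for C1qa, 0.58 for C1qb, 0.60 for C1qc, -0.05 for Lyz2, 0.42 for Csf1r, 0.36 for Vcam1, 0.27 for Mertk and -0.77 for Adgre1, and without cKO FO 1 they were 0.92, 0.87, 0.84, 0.53, 0.80, 0.90, 0.78 and -0.49 in the same order, with none called. The median log2 difference of the 10 genes was 0.41 in WT, 1.06 in cKO and 0.63 over both genotypes, while that of all genes tested lay at -0.0048, -0.0047 and -0.0045.

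**Figure D2:**
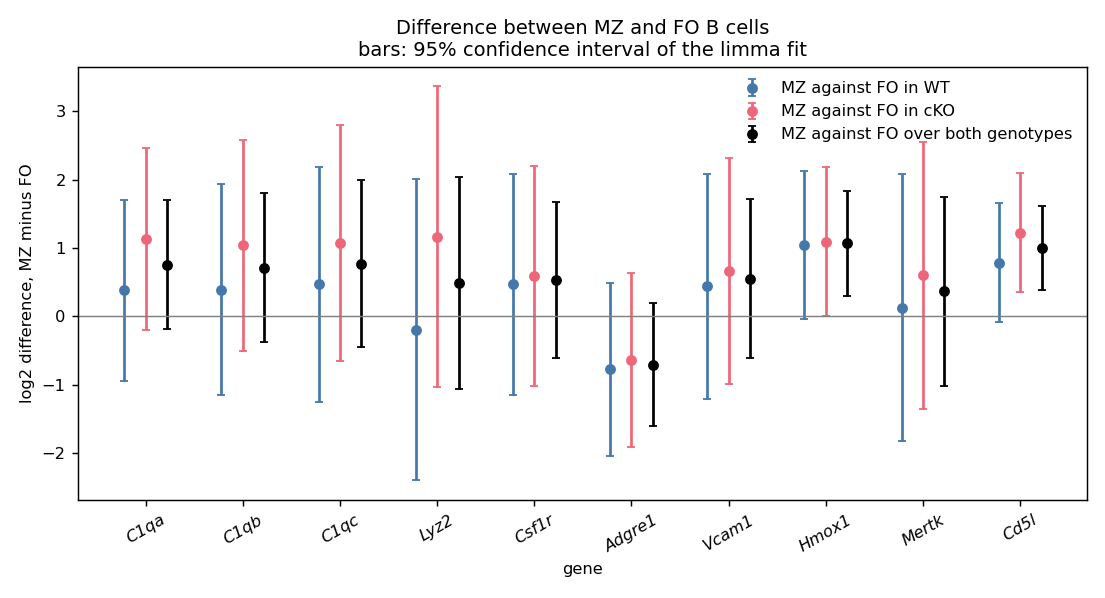
Log2 difference, MZ minus FO, of each of the 10 macrophage genes (horizontal axis) in WT, in cKO and over both genotypes, with the 95% confidence interval of the limma fit. Over both genotypes only the intervals of Hmox1 (0.30 to 1.83) and Cd5l (0.39 to 1.62) lie wholly above 0.

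The spread between libraries of a group was wide for these genes. The 2 libraries of a group differed by a median of 0.72 on the log2 scale over the 10 genes in WT FO, 0.75 in cKO FO, 1.84 in WT MZ and 0.54 in cKO MZ. The same median over all genes tested was 0.23, 0.19, 0.20 and 0.15. In WT MZ the smallest gap among the 10 was that of Cd5l, at 0.86, and the largest that of C1qc, at 2.65. This summary was chosen after the values were seen.

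Genotype was compared within each subset. Of the 10 genes, limma, edgeR and DESeq2 each called 0 between cKO and WT in FO, where limma called 0.0677% of all genes, and 0 in MZ, where it called 0.0339%. At an unadjusted limma p below 0.05, 0 of the 10 and 382 of all 14761 genes passed in FO. In MZ, 596 of all genes passed and 1 of the 10 (Cd5l, log2 difference 0.89, 95% interval 0.02 to 1.76, limma adjusted p = 0.998). C1qa was higher in cKO MZ than in WT MZ by 1.29 (95% interval -0.03 to 2.62, limma adjusted p = 0.998), a value that rests on the low WT MZ 1 library. The interaction of genotype and subset was called for 0 of the 10 genes by all 3 tools, and for 0% of all genes by limma. At an unadjusted limma p below 0.05, 0 of the 10 and 94 of all 14761 genes passed for the interaction.

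Of 10 other genes of red pulp macrophages, 9 were tested, and Spic alone was called over both genotypes, higher in MZ. Of all genes tested, 10.9% were called higher in MZ, so this count does not set the list apart. Slc40a1, encoding the iron exporter ferroportin, was at 63.9 and 148.4 normalized counts in the WT FO libraries, 151.2 and 67.4 in cKO FO, 51.0 and 294.3 in WT MZ, and 220.3 and 139.2 in cKO MZ. It had the highest correlation with the summed level of the 10 genes among the other macrophage lists (r = 0.98, Spearman 0.90, and 0.97 over 6 libraries without WT FO 1 and WT MZ 1, the 2 farthest from the median). Cd163, a scavenger receptor for hemoglobin bound to haptoglobin, was between 1.93 and 34.9 normalized counts. Summed, the list ranged from 275.4 to 600.1 in FO and from 365 to 1103 in MZ.

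Spic, the called gene of the red pulp list, was at 71.8 and 62.8 normalized counts in the WT FO libraries, 108.6 and 159.0 in cKO FO, 178.2 and 159.4 in WT MZ, and 251.2 and 292.8 in cKO MZ. All 4 MZ libraries were above all 4 FO libraries, WT MZ 1 among them, though the lowest (159.4) and the highest of FO (159.0) differed by less than counting error. The log2 difference was 1.18 (SE 0.16, limma adjusted p = 0.00124), with 1.04 without cKO FO 1 and 1.23 without cKO MZ 1. Its correlation with the summed level of the 10 genes was 0.27. Spi-C is also made by B cells.

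The defining genes of marginal zone macrophages were low, and Cd209b was at or near 0. Cd209b had 1 read in each of 2 libraries and 0 in the other 6, Timd4 was at 5.43 normalized counts or less, Siglec1 at 15.4 or less and Marco at 24.4 or less, on 2 to 27 reads. The highest values of Marco, Siglec1 and Timd4 were all in WT MZ 2. Of the 6 genes of the list only 1 passed the filter on low counts, and it was not called. Summed, the list was at 21.9 to 43.8 in FO and 39.5 to 96.9 in MZ.

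Several genes that macrophages share with other cells differed between the subsets. Of 12 pan-macrophage genes, 10 were tested, 5 were called higher in MZ over both genotypes (Aif1, Cd68, Lgmn, Sirpa and Tyrobp) and 1 lower (Maf). Of all genes tested, 10.9% were called higher and 7.45% lower. Sirpa, the receptor for CD47, was at 107.8 and 218.8 normalized counts in the WT FO libraries, 136.6 and 101.7 in cKO FO, 954.5 and 1325 in WT MZ, and 997.7 and 850.7 in cKO MZ, a log2 difference of 2.91 (SE 0.23, limma adjusted p = 0.000104), with 3.02 without cKO FO 1 and 2.85 without cKO MZ 1. Tyrobp, the signalling adaptor DAP12, was at 346.0 to 496.6 in FO and 1018 to 1241 in MZ, a log2 difference of 1.41 (SE 0.10). Cd68 and Lgmn, proteins of the lysosome, differed by 0.81 and 0.81, and Aif1 by 0.96. The call of Aif1 was lost without any of 5 single libraries (WT FO 1, cKO FO 1, WT MZ 2, cKO MZ 1 or cKO MZ 2), with log2 differences of 0.73 to 1.19 over all 8 omissions. Maf, a transcription factor of macrophages and T cells, fell by 2.33 on the log2 scale. Spi1 (PU.1), which B cells also express, stayed between 1798 and 2392.

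**Figure D3:**
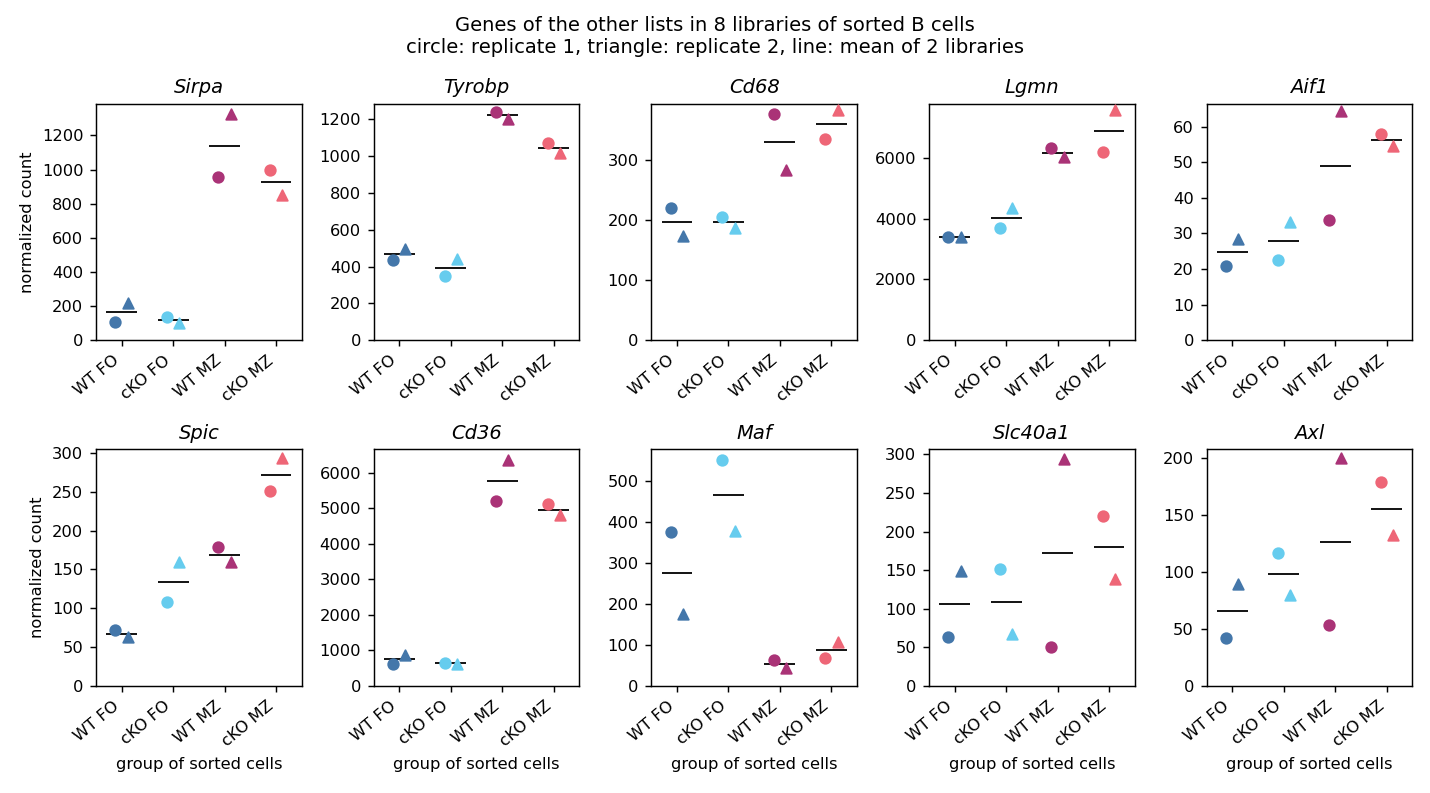
Normalized counts (vertical axes, each from 0) of 10 genes of the other lists in the 4 groups, with 1 point per library and a line at the group mean. Sirpa, Tyrobp, Cd68, Lgmn, Spic and Cd36 have both WT MZ libraries above FO, while Slc40a1 and Axl have WT MZ 1 (51.0 and 53.0) far below WT MZ 2 (294.3 and 199.2), as the C1q chains do.

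Each gene was also divided by the summed C1q level of its library, a ratio that stays fixed for transcripts present in the same proportion everywhere. For Vcam1 the ratio ran from 0.398 to 0.785, so that the highest was 1.97 times the lowest. The same quotient was 2.56 for Csf1r, 2.83 for Cd5l, 3.41 for Mertk, 4.65 for Hmox1, 8.24 for Lyz2 and 9.27 for Adgre1. Among genes of the other lists, picked after their values were seen, it was 1.999 for Axl, a receptor related to Mertk, 2.39 for Slc40a1 and 2.93 for Fcna. It was 5.80 for Spic, 6.86 for Lgmn, 7.57 for Cd68, 11.2 for Tyrobp, 21.8 for Sirpa and 25.1 for Cd36. All 6 of these last genes, and Hmox1, Cd5l and Axl, had their highest ratio in WT MZ 1, the library with the fewest C1q reads. Adgre1 had its highest ratio in WT FO 2 (1.29) and its lowest in cKO MZ 1 (0.139).

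**Figure D4:**
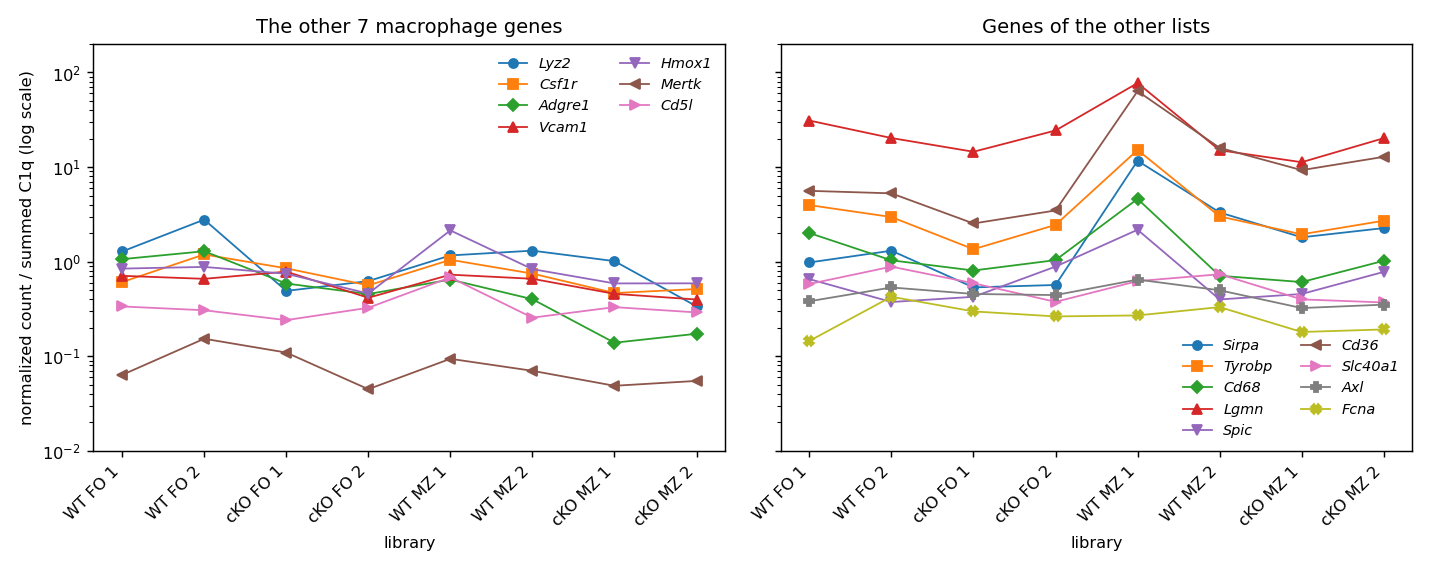
Normalized count divided by the summed C1q level of the same library (vertical axis, log scale) for the other 7 macrophage genes (left) and 9 genes of the other lists (right), in the 8 libraries. Vcam1, Axl and Slc40a1 have the narrowest ranges of the genes shown (highest over lowest 1.97, 1.999 and 2.39), and Sirpa and Cd36 peak in WT MZ 1 (11.7 and 63.5).

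The pathways around the 10 genes gave a few calls each. Over both genotypes, 10.9% of all genes tested were called higher in MZ and 7.45% lower, so 1 or 2 calls in lists this short do not set a pathway apart. Of the classical complement genes, the 3 C1q chains included, 5 were tested over both genotypes and C2 was called higher in MZ (log2 difference 1.78), from 5.71 to 10.1 normalized counts in FO to 18.9 to 40.2 in MZ. C2 averaged 5.85 in WT FO and 8.56 in cKO FO, below the filter on low counts. It passed that filter only through MZ, which favoured a call in this direction. Of 14 genes of heme and iron handling, 2 were called higher in MZ (Hmox1 and Spic) and 2 lower (Blvrb, a reductase, at -0.83, and Tfrc, the transferrin receptor, at -0.76). Of 12 genes for the uptake of dying cells, 7 were tested, Cd36 was called higher (2.96) and Itgb3 (-1.24) and Mfge8 (-0.94) lower. Cd36, a scavenger receptor that MZ B cells carry, was at 615.7 to 883.8 normalized counts in FO and 4814 to 6373 in MZ. Of 8 genes around Csf1r, 6 were tested and Tyrobp was called, higher in MZ. Of the lysozyme pair only Lyz2 was tested.

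The sort could also hold other cells, whose markers are given by their sums. Their calls over both genotypes stand beside 10.9% of all genes tested called higher in MZ and 7.45% called lower. Monocyte genes (7 of 9 tested, 0 called over both genotypes) summed to 100.7 to 426.2 normalized counts in FO and 82.8 to 450.5 in MZ. Granulocyte genes (11 of 14 tested, 0 called over both genotypes) were at 61.6 to 131 in FO and 84.2 to 2111 in MZ, and T and NK cell genes (3 of 9 tested, 0 called over both genotypes) at 51.3 to 175.1 and 45.4 to 152.1. Within cKO, 3 of these myeloid genes were called higher in MZ, where 8.18% of all genes tested were. They were Camp (log2 difference 3.43) and Ngp (4.36) of granulocytes and Fn1 (2.86) of the monocyte list. Camp averaged 5.40, 2.57 and 7.53 normalized counts in WT FO, cKO FO and WT MZ, and Ngp 11.8, 3.30 and 12.9. In cKO MZ they averaged 52.0 and 139.4. Both passed the filter on low counts only through cKO MZ, which favoured a call in this direction. Ngp was at 5.60 and 1.007 normalized counts in cKO FO and at 258.1 and 20.6 in cKO MZ. Without cKO MZ 1 the log2 differences of Camp, Ngp and Fn1 were 2.03, 2.57 and 2.86, with limma adjusted p of 0.194, 0.240 and 0.186. Erythroid genes summed to 26.9 to 1071 in FO and 97.3 to 14413 in MZ. Dendritic cell genes (6 of 9 tested) gave Itgax and Flt3 higher and Cd209a lower. Cd209a averaged 31.4 and 32.1 normalized counts in WT FO and cKO FO, and 8.72 and 1.99 in WT MZ and cKO MZ. It passed the filter on low counts only through FO, which favoured a call in this direction. Endothelial and stromal genes (3 of 8 tested) were at 37.9 to 49.3 in FO and 78.0 to 302.1 in MZ, with Cdh5, the cadherin of endothelium, called higher (2.01). The top was cKO MZ 2 alone, as WT MZ 1, WT MZ 2 and cKO MZ 1 were at 78.0, 164.8 and 119.6. Col1a1, a collagen gene of this list, had a mean of 55.7 and an SD of 78.8 in cKO MZ. Platelet genes (1 of 4 tested) gave Itga2b, lower in MZ, and plasma cell genes (6 of 6 tested) gave Mzb1 and Prdm1 higher and Sdc1 lower. B cell genes (8 of 8 tested) summed to 208426 or more in every library, and Blnk alone was called, higher in MZ. The calls of Itgax and Itga2b were each lost without any library but WT FO 2 or WT MZ 1, with log2 differences of 1.21 to 2.23 and -0.80 to -0.54 over all 8 omissions. That of Flt3 was lost without WT MZ 1 (0.56) and that of Blnk without WT FO 2, WT MZ 1 or cKO MZ 2 (0.55, 0.51 and 0.58). Of the list genes named here as called over both genotypes, Aif1, Itgax and Itga2b lost the call both without cKO FO 1 and without cKO MZ 1, and the others kept it. The part of these cells in the level of the 10 genes was not tested.

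**Figure D5:**
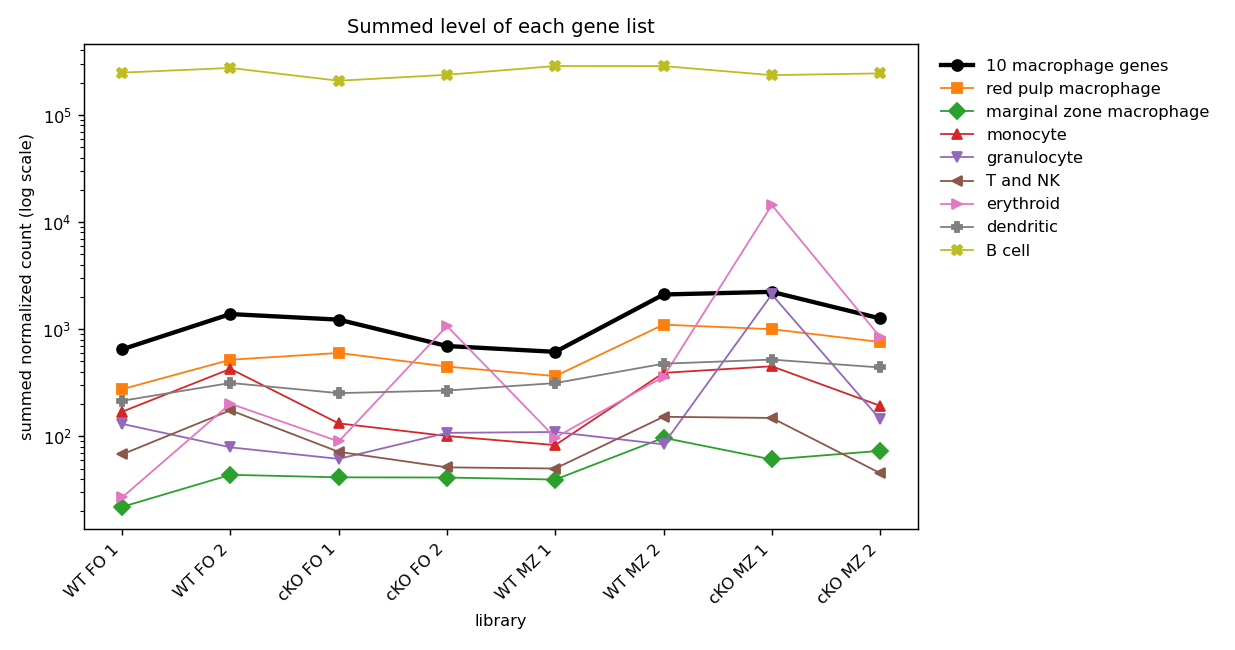
Summed normalized count (vertical axis, log scale) of the 10 macrophage genes and of 8 lists of marker genes in each of the 8 libraries. The 10 genes (thick line) and the red pulp list run together, from 614.5 and 365 in WT MZ 1 to 2108 and 1103 in WT MZ 2, and the granulocyte and erythroid lists peak in cKO MZ 1.

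Over the 8 libraries, the log2 sum of the 10 genes correlated at a Pearson r of 0.93 with that of the red pulp list, 0.86 with the monocyte list, 0.79 with the dendritic list, 0.77 with the marginal zone macrophage list, 0.75 with the T and NK list, 0.42 with the granulocyte list, 0.38 with the pan-macrophage list and -0.02 with the B cell list. These are descriptions over 8 shared libraries. The 10 genes outside the lists with the highest correlation were Slpi (0.97), mt-Tl2, Ttc14, Fcgr3, Hfe, Adgre4, Nxpe4, Cdc23, Mcm6 and Hacd4 (0.94). Of the 14761 genes ranked, 47 (0.318%) had an r of at least 0.9, and the median r of all was 0.007. Slpi was at 17.0 and 33.3 normalized counts in the WT FO libraries, 41.4 and 20.1 in cKO FO, 15.4 and 86.0 in WT MZ, and 84.7 and 29.9 in cKO MZ. Fcgr3, an Fc receptor of myeloid and NK cells, ranged from 12.1 to 52.8, and Adgre4, a relative of Adgre1, from 15.0 to 71.5.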

How the data were processed

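RNA of sorted B cells was depleted of ribosomal RNA and sequenced as single-end reads. Per the submitters' processing notes and the study's methods, the authors aligned with HISAT2 to mm10, counted reads per gene with featureCounts or HTSeq (which of them made the table, the strand setting and the versions are not given in the sources used here) and normalized with DESeq2. The deposited signal is thus reads divided by a size factor, in 1 table of 27928 genes for 8 libraries. Dividing by the smallest step gave whole reads for 100% of values (within 0.01). These reads served for intervals and for edgeR 4.0.16 and DESeq2 1.42.0 as alternatives, while limma 3.58.1 (R 4.3.3; lmFit, eBayes with trend, pseudocount 1, 4 groups in 1 fit) gave the tests, after checks on simulated data.

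The 10 genes and the gene lists were chosen with earlier results of these data known. Named besides the 10 are list genes called in MZ against FO, fixed defining genes (Spic, Marco, Cd209b, Siglec1, Cd163, Slc40a1, Lyz1, Spi1) and the 10 most similar genes. Other genes with values (Axl, Fcna, Timd4, Hmgxb3, the sex-linked pair) were picked after their values were seen. The labels do not say whether the libraries of a group came from separate mice, so p-values may measure only technical spread. Alternatives were other pseudocounts, filters, scalings, fold cutoffs, fits, a replicate block and each library left out. The 8 ATAC-seq samples were not analysed here, and some genes are not reported here. Gene positions are from GENCODE M21 (GRCm38).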

Additional observations from a re-analysis of the deposited data

How the results depend on the processing

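With 2 libraries per group and a low level of all 10 genes, the choice of libraries moved the counts of MZ against FO. In MZ against FO over both genotypes, where 2 genes were called, the count was 1 without the filter on low counts and 1 after quantile normalization (Cd5l each time), stayed at 2 under the other settings with all libraries, and ran from 0 to 5 with 1 library left out. Within cKO it rose from 0 to 4 when only the 4 libraries compared were fitted (C1qa, C1qb, C1qc and Cd5l), to 1 with DESeq2 (Cd5l), and ran from 0 to 2 with 1 library left out. Within WT it ran from 0 to 1 (C1qc, without WT MZ 1). No setting called any of the 10 between genotypes or in the interaction. The share of all genes called under these other settings is not given here. The counts of MZ against FO under them therefore have no background to be read against.

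With the replicate number as a block the counts were 0 in WT, 0 in cKO and 2 over both genotypes, and the block changed no call. The block was 1 term shared by the 4 groups, so it could not represent a pairing held in WT only. Such a pairing was not tested. Same-numbered libraries deviated together between WT FO and WT MZ (r = 0.591), WT FO and cKO FO (0.294) and cKO FO and WT MZ (0.161) but not between cKO FO and cKO MZ (-0.0015), WT FO and cKO MZ (-0.172) or WT MZ and cKO MZ (-0.296), so, with 2 numbers only, these were not taken to pair the samples. A block with the cKO MZ numbers exchanged, chosen after seeing the data, called 1 gene within cKO (Cd5l).

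Directions turned for genes that were not called. Lyz2 in WT (-0.20) became 0.038 with edgeR and 0.026 with DESeq2, and Mertk in WT (0.12) became -0.10 after quantile normalization. With 1 library left out, the log2 difference in WT ran from -0.56 to 1.33 for C1qa, -0.72 to 1.49 for C1qb, -0.86 to 1.79 for C1qc, -1.42 to 1.02 for Lyz2, -0.43 to 1.36 for Csf1r, -1.57 to 0.013 for Adgre1, -0.63 to 1.497 for Vcam1 and -0.75 to 0.99 for Mertk. In cKO it ran from -0.045 to 1.37 for Vcam1 and -0.24 to 1.44 for Mertk, and over both genotypes from -0.13 to 1.09 for Lyz2 and -0.073 to 0.80 for Mertk. A group left with 1 library was assumed to vary like the others. The cause was not tested.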
